A study of Drosophila melanogaster with 13 samples.

Results

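MSL1 and MSL3 were compared on the chromatin of adult Drosophila melanogaster males in which the only functional MLE helicase lacked its CLAMP-binding domain (MLEΔCBD-FLAG males). The comparison rests on the deposited MSL1 peak list, with 577 peaks, and the deposited MSL3 peak list, with 2301 peaks, which together hold 2878 of the 6400 peaks of the series and come from 4 of its 13 libraries. Every peak of both lists was used: each was classed by whether a peak of the other protein overlapped it by at least 1 bp, and the X chromosome and the autosomes (2L, 2R, 3L, 3R and 4) were kept apart. For each peak the summit, the width, the rank by fold enrichment within its own list, and the position of the summit at a promoter, in a gene body or between genes were taken.

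The series used ChIP-seq, which sequences the DNA that an antibody pulls down with its protein, and a peak is a stretch with more such DNA than its surroundings. Chromatin came from whole males, aged 2 to 3 days according to the labels, with 2 replicate libraries per protein and line and 1 library made with preimmune serum. The males studied here were y1 w1118 and homozygous for mle9, which removes functional endogenous MLE, and carried 2 copies of Ubi:mleΔCBD, a FLAG-tagged transgene on chromosome 3 expressed from a ubiquitin promoter. The MLEWT-FLAG males, used below as a reference, had the same mle9 background and 1 copy of the intact transgene over the TM6 balancer. Whole males mix all tissues, so a peak that is weak in every cell cannot be told apart from one that is strong in few cells, and survivors of a line with reduced male viability were the animals sampled. The authors deposited 1 list per protein and line, with no column labelled by replicate and no read counts. There is therefore no replicate error, no test and no p-value in what follows, the sequencing depth is unknown here, and 95% intervals (Wilson for shares, binomial order statistics for medians) cover the counting of peaks only. Fold enrichments were not compared in size between the lists, because the antibodies and backgrounds differ.

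The MSL complex raises transcription of the single male X chromosome. MSL1 is its scaffold, onto which MSL2, MSL3 and the acetyltransferase MOF assemble, while MLE loads the noncoding roX RNAs. MSL2 and CLAMP read GA-rich DNA at high-affinity sites, and the chromodomain protein MSL3 is known for recognising chromatin of transcribed genes methylated on histone H3 lysine 36. MSL1 and MSL3 are thus the scaffold and the chromatin reader of the same complex. A peak of either protein does not by itself show that the whole complex is present there.

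The DNA under the summits differed by class, and the stretches below are shown because the later counts turn on them. The strongest autosomal MSL1 peaks of both classes lay on repeated copies of a heptamer, AAGCAGT on one strand and ACTGCTT on the other, which was found by ranking 8-base words after the data had been examined. Each line gives 30 bases of the plus strand, 5′ to 3′, from the RefSeq release 6 genome, the same build as the peaks (dm6), with every complete copy in capitals. The first 4 belong to autosomal MSL1 peaks with MSL3 that ranked 2, 3, 4 and 7 of 577 by fold enrichment, at bun (an intron), Antp (the 3′ UTR), mRpL13 (a promoter) and CG34253 (between genes, 916 bp from its start). The next 2 are autosomal MSL1 peaks without MSL3, beside the start of RtcB and in the 5′ UTR of PolrMT, and the last 2 are X-linked MSL1 peaks without MSL3, in the region of stg1 and at the promoter of mew.
bun, chr2L:12520382-12520411: agggctatgtaaACTGCTTagtcaaaccgc
Antp, chr3R:6908276-6908305: tataAAGCAGTacatctagACTGCTTttta
mRpL13, chr2L:18859380-18859409: gAAGCAGTtcatcaattgtgttAAGCAGTa
CG34253, chr3L:18088190-18088219: cACTGCTTgcgtgaagatgttaACTGCTTt
RtcB, chr2L:19430386-19430415: agaatACTGCTTagtttaaACTGCTTgctt
PolrMT, chr2L:1108351-1108380: cgcAAGCAGTtgttggcagcACTGCTTgct
stg1, chrX:21083435-21083464: AAGCAGTtgtcAAGCAGTgcgccAAGCAGT
mew, chrX:13257290-13257319: aagcagacgcacAAGCAGTtccactacact

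GA repeats, searched as GAGAGAGA on either strand, were a trait of some X-linked MSL1 peaks of both classes. They stood within 100 bp of 39 of 173 summits with MSL3 and 4 of 14 without. The rank 1 peak, at roX1, held none. The 3 strongest X-linked MSL1 peaks with MSL3 that hold one are the 3′ UTR of CG9132, the noncoding exon of roX2 and an intron of Atg5. Their windows are again on the plus strand with all copies in capitals.
CG9132, chrX:16798362-16798391: ggcagacaGAGAGAGAGAGAGAgtgaggga
roX2, chrX:11580202-11580231: tagagaggcgaTCTCTCTCgtatacgagtc
Atg5, chrX:7321012-7321041: tcaTCTCTCTCTCTCTCTCTCTCTCTCtga

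At autosomal promoters, MSL1 peaks without MSL3 often held GGTCACACT, known as core promoter motif 1, on either strand. The example shown, 48 bp from the start of the kinase gene msn, had a fold enrichment of 3.64 and rank 245, and carries the motif as its reverse complement, in capitals on the plus strand.
msn, chr3L:2586525-2586554: cggattccaacAGTGTGACCaattagccga

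Nearly every X-linked MSL1 peak lay in an MSL3 peak, while most MSL3 peaks had no MSL1 peak. Of all MSL1 peaks of the list, 75.0% overlapped an MSL3 peak, and of all MSL3 peaks 18.6% overlapped an MSL1 peak. The X-linked MSL1 share was 173 of 187 (92.5%, 87.8 to 95.5%), and among autosomal peaks 248 of 377 (65.8%, 60.9 to 70.4%). The MSL3 shares were 165 of 687 (24.0%, 21.0 to 27.4%) and 250 of 1570 (15.9%, 14.2 to 17.8%). By arm, the MSL1 share was 59.5% on 2L (44 of 74), 61.7% on 2R (50 of 81), 66.7% on 3L (64 of 96) and 72.5% on 3R (87 of 120), with overlapping intervals, and chromosome 4 had 3 of 6. MSL3 peaks covered 5.44% of the X chromosome and 1.15% of the autosomes, and MSL1 peaks 1.00% and 0.161%, so chance contacts are not equally likely in the compared regions. In length, 96.4% of the X-linked DNA under MSL1 peaks was also under MSL3 peaks, against 60.7% on the autosomes.

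The shares moved with the unequal length of the lists. When the MSL3 list was shortened to its 577 strongest peaks, as many as the MSL1 list holds, 63.1% of X-linked MSL3 peaks and 37.8% of autosomal MSL3 peaks overlapped MSL1, and the MSL1 shares were 69.0% for X-linked and 38.2% for autosomal peaks. The X share stayed above the autosomal share for both proteins under this setting. With summits within 250 bp in place of 1 bp of overlap, the MSL1 order turned, with 53.5% for X-linked and 61.0% for autosomal peaks, and the MSL3 shares were alike, at 14.6% for X-linked and 14.6% for autosomal peaks.

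Overlaps were nearly always between 1 MSL1 peak and 1 MSL3 peak. There were 173 X-linked MSL1 peaks that fell in 165 MSL3 peaks, 8 of which held 2 MSL1 peaks. On the autosomes 250 pairs joined 248 MSL1 peaks with 250 MSL3 peaks. MSL1 peaks without MSL3 were mostly far from one: the gap to the nearest MSL3 peak had a median of 5438 bp for the 14 X-linked peaks and 14277 bp for the 129 autosomal peaks, and it was within 1000 bp for 4 and 11 of them.

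Strength separated the MSL3 classes in both regions and the MSL1 classes on the autosomes. With rank 1 as the strongest peak, autosomal MSL1 peaks with MSL3 had a median rank of 286.5 (250 to 313) of 577, and those without 425 (394 to 459). The X-linked MSL1 medians were 182 (159 to 224) with MSL3 and 266.5 (116 to 419) for the 14 peaks without, with overlapping intervals. X-linked MSL3 peaks with MSL1 had a median rank of 339 (281 to 399) of 2301 and those without 1094.5 (1037 to 1152), and the autosomal MSL3 medians were 463.5 and 1458.5. When the peaks of a list and region were cut into 4 bins of equal size by fold enrichment, the strongest bin of X-linked MSL3 peaks overlapped MSL1 in 117 of 172 cases (68.0%) and the weakest in 6 of 171 (3.51%). The autosomal MSL3 bins fell from 148 of 393 (37.7%) to 11 of 392 (2.81%).

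Autosomal MSL1 peaks changed in kind along this order of strength. In the strongest bin (fold enrichment 4.19 to 40.0), 84 of 95 overlapped MSL3, 38 lay at a promoter and 74 held the heptamer. In the weakest bin (2.15 to 2.58), 46 of 94 overlapped MSL3, 85 lay at a promoter and 8 held the heptamer. The bins between them had 68 of 94 and 50 of 94 peaks with MSL3. The strongest autosomal MSL1 peaks were thus heptamer sites with MSL3, and the weak ones were promoter sites split almost evenly between both classes. X-linked MSL1 peaks had no such gradient in MSL3, which was present at 46 of 47 peaks in the strongest bin and 41 of 46 in the weakest. The heptamer stood at 5 and 4 X-linked peaks in these bins, and GA repeats at 16 and 8.

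**Figure D1:**
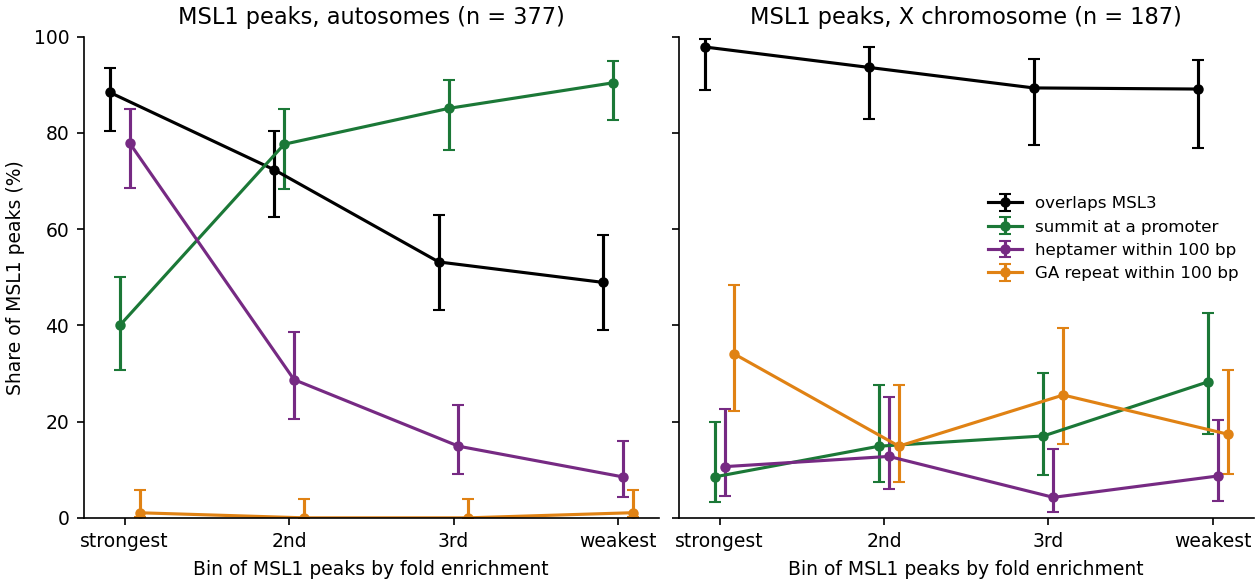
Share (%) of MSL1 peaks of MLEΔCBD-FLAG males that overlap MSL3, have their summit within 200 bp of a transcription start, or hold the heptamer or a GA repeat within 100 bp of the summit, by bin of fold enrichment from strongest to weakest, with autosomes on the left and the X chromosome on the right; bars are 95% Wilson intervals. On the autosomes the share with MSL3 falls from 88.4% to 48.9% and the promoter share rises from 40.0% to 90.4%, while on the X chromosome MSL3 stays between 89.1% and 97.9%.

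The most enriched MSL1 sites on the X chromosome were the roX genes and other X-linked genes with MSL3 at the same place. At roX1, which encodes a roX RNA, the MSL1 peak (chrX:3860235-3862330, fold enrichment 40.7, rank 1) and the wider MSL3 peak (chrX:3858536-3862832, fold enrichment 17.1, rank 40) had the same summit. At roX2 (MSL1 fold enrichment 19.1, rank 15) MSL3 ranked 253, with its summit 26 bp away. The 3′ UTR of CG9132 (rank 9) and of Socs16D, a suppressor of cytokine signalling gene (rank 12), had MSL3 peaks of rank 75 and 90 with summits at 3 bp and 8 bp. In Stt3A, which encodes the catalytic subunit of an oligosaccharyltransferase, and in CG4645, MSL1 ranked 25 and 39 and MSL3 49 and 45, with summits 151 bp and 44 bp apart. At all 6 genes the MSL1 peak overlapped peaks of MSL1, MSL2 and MSL3 in MLEWT-FLAG males and of MSL2 in MLEΔCBD-FLAG males. Among all 173 X-linked MSL1 peaks with MSL3, 58 (33.5%) overlapped an MSL2 peak of MLEΔCBD-FLAG males. Among these 6 genes roX2 stood lowest in the MSL3 list. Ranks are not comparable between the lists, which differ in length.

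The most enriched autosomal MSL1 sites with MSL3 came directly after roX1 in the MSL1 list. They were an intron of bun, a TSC-22 family transcription factor gene (fold enrichment 40.0, rank 2), the 3′ UTR of the homeotic gene Antp (37.7, rank 3), the promoter of mRpL13, a mitochondrial ribosomal protein gene (36.5, rank 4), and a site 3885 bp from the start of CG13323 at chr2R:13043051-13043734 (35.4, rank 5). In the MSL3 list the partners ranked 2 at bun, 85 at Antp, 4 at mRpL13 and 1 near CG13323. Each held 4 heptamer copies within 100 bp of the MSL1 summit, and the MSL3 summits lay 105, 5, 27 and 20 bp away. All 4 were also MSL1 and MSL3 peaks in MLEWT-FLAG males, and none overlapped an MSL2 peak in either line.

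The strongest MSL1 peaks without MSL3 were far lower in the list. The X-linked ones were a site 10395 bp from the start of stg1 (fold enrichment 8.74, rank 59), the promoter of the integrin gene mew (5.53, rank 109), an intron of CG32638 (5.34, rank 116) and an intron of Hsp60A, a mitochondrial chaperonin gene (4.35, rank 173). All 4 held 2 or 3 heptamer copies and none overlapped a peak of any other list. On the autosomes they were a site 6569 bp from the start of CG12769 (6.48, rank 91), one 223 bp from the start of RtcB, an RNA ligase gene (5.88, rank 100), an intron of the G protein gene Galphaq (5.27, rank 118) and the 5′ UTR of PolrMT, the mitochondrial RNA polymerase gene (5.16, rank 125). They too held 2 or 3 copies, and PolrMT alone was an MSL1 and MSL3 peak in MLEWT-FLAG males.

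Some of the strongest MSL3 peaks had no MSL1 peak. Those on the X chromosome were an intron of the nuclear receptor gene Hr4 (MSL3 fold enrichment 25.9, rank 10) and the promoters of N, which encodes the Notch receptor (11.8, rank 94), of CG4293 (10.3, rank 115) and of Sxl, the switch gene of sex determination (9.62, rank 127). On the autosomes they were sites near MCU, a mitochondrial calcium uniporter gene (33.8, rank 6), CG7031 (28.6, rank 8) and CG6465 (23.9, rank 15), and the promoter of nemy (24.9, rank 13). All 8 were MSL3 peaks in MLEWT-FLAG males, none overlapped an MSL1 or MSL2 peak of either line, and none held the heptamer.

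The other lists set the classes apart. Of the whole MSL1 list, 33.1% of peaks overlapped an MSL1 peak, 66.6% an MSL3 peak and 25.0% an MSL2 peak of MLEWT-FLAG males, and 12.8% an MSL2 peak of MLEΔCBD-FLAG males. Of the whole MSL3 list these shares were 10.9%, 75.0%, 7.87% and 3.48%. Of autosomal MSL1 peaks with MSL3, 194 of 248 (78.2%, 72.7 to 82.9%) lay on an MSL3 peak of MLEWT-FLAG males, against 10 of 129 (7.75%, 4.3 to 13.7%) without. In the same classes 38 and 2 lay on an MSL1 peak of MLEWT-FLAG males. The difference in the MSL3 peaks of MLEWT-FLAG males held at each strength: in the weakest bin it was 33 of 46 against 5 of 48. Of 173 X-linked MSL1 peaks with MSL3, 143 lay on an MSL1 peak of MLEWT-FLAG males and 58 on an MSL2 peak of MLEΔCBD-FLAG males. Of 522 X-linked MSL3 peaks without MSL1, 495 lay on an MSL3 peak of MLEWT-FLAG males, 68 on an MSL1 peak of those males, and 0 on an MSL2 peak of MLEΔCBD-FLAG males. MSL3 lists of both lines share an antibody, so overlap between them is not independent of overlap with MSL3 here.

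MSL3 peaks were wider than their MSL1 partners on the X chromosome and at autosomal promoters, and about as wide at the other autosomal sites. In the 173 X-linked pairs the median width was 1157 bp for MSL1 and 2912 bp for MSL3, the median ratio of MSL3 to MSL1 was 1.96 (1.68 to 2.19), MSL3 was wider in 160, and 133 MSL1 peaks (76.9%) lay wholly inside the MSL3 peak. In the 248 autosomal pairs the medians were 407.5 and 534 bp, the ratio was 1.19 (1.12 to 1.31) and MSL3 was wider in 171. The autosomal pairs were of 2 kinds: at promoters the ratio was 1.44 (1.26 to 1.55) and MSL3 was wider in 138 of 171, and elsewhere the ratio was 0.95 (0.87 to 1.02) and MSL3 was wider in 33 of 77. Off promoters the MSL1 peak contained the whole MSL3 peak in 33 of the 77 pairs, against 8 of 173 on the X chromosome.

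MSL1 peaks without MSL3 were narrower than those with it on the X chromosome, and only slightly so on the autosomes. The 14 X-linked MSL1 peaks without MSL3 had a median width of 359.5 bp, against 1157 bp with MSL3. The autosomal medians were 360 bp (331 to 386) without and 407.5 bp (375 to 433) with MSL3, with overlapping intervals. X-linked MSL3 peaks without MSL1 had a median of 1016 bp against 2858 bp with MSL1, whereas autosomal MSL3 peaks had 564.5 bp without and 534 bp with MSL1. Across all pairs Spearman's rho of the widths was 0.70 on the X chromosome (n = 173) and 0.31 on the autosomes (n = 248). The order was not the same at every position of the MSL1 summit. In gene bodies rho was 0.67 (n = 131) on the X chromosome and 0.73 (n = 28) on the autosomes. At promoters it was 0.46 (n = 28) and 0.35 (n = 171), and between genes 0.75 (n = 14) and 0.34 (n = 49). These values describe pairs that share their libraries.

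**Figure D2:**
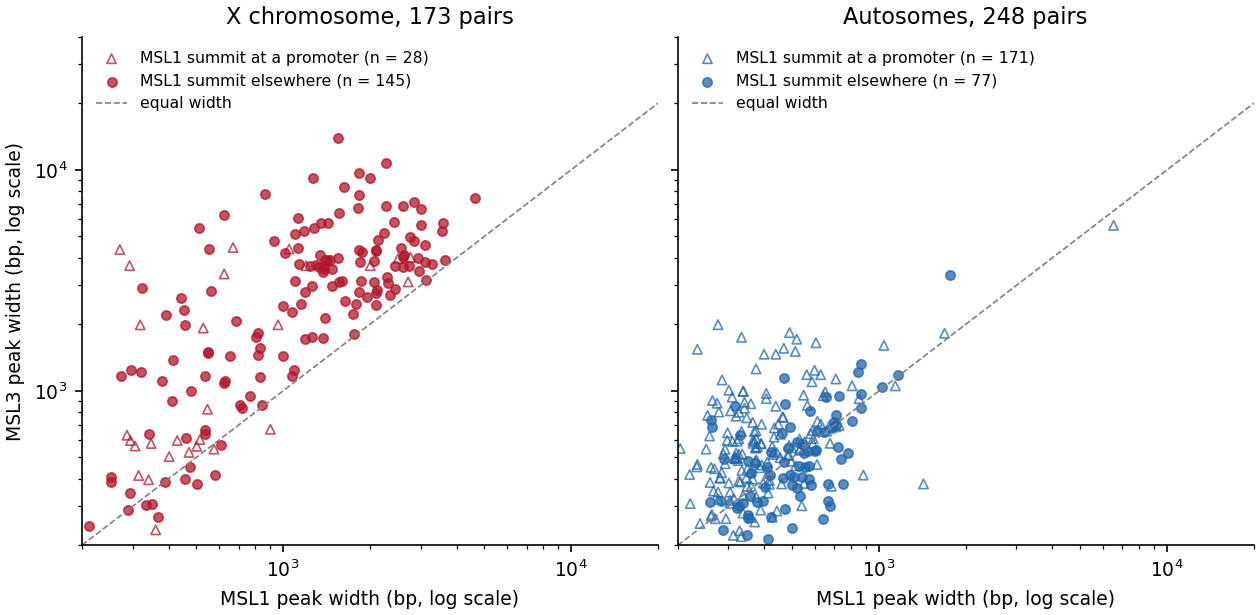
Width of each MSL1 peak (bp, log scale) against that of the MSL3 peak with the longest overlap (bp, log scale) for the 173 X-linked and 248 autosomal pairs, with triangles for MSL1 summits within 200 bp of a transcription start, filled circles for the others, and the dashed line at equal width. MSL3 is wider in 160 X-linked pairs, and the autosomal circles lie around the dashed line.

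MSL1 and MSL3 summits lay close together on the autosomes and often stood apart on the X chromosome off promoters. The median distance between summits was 20.5 bp (17 to 24) in the autosomal pairs, 198 of which (79.8%) were within 50 bp. In the X-linked pairs it was 162 bp (90 to 235), and 65 (37.6%) were within 50 bp. At promoters the medians were 27 bp (13 to 90) in 28 X-linked pairs and 22 bp (18 to 27) in 171 autosomal pairs. In gene bodies they were 192 bp (124 to 326) in 131 X-linked pairs and 16 bp (8 to 28) in 28 autosomal pairs. Each list carries the summits of a pair of peak sets, and the distance between them gives a scale for summit error. The sources used here do not say whether these sets are replicates or share reads, and shared reads would make the scale too small. For a pair of peaks, the larger of the distances between these sets had a median of 20 bp on the autosomes and 50 bp on the X chromosome, and the MSL1 to MSL3 distance exceeded it in 122 of 248 (49.2%) autosomal and 101 of 173 (58.4%) X-linked pairs. For 1 protein alone, the median set-to-set distance in the autosomal classes was 13 bp (10 to 16) for MSL1 with MSL3 and 9 bp (8 to 11) for MSL3 with MSL1, both under the 20.5 bp between the proteins.

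Peak width moved with the X-linked distance. Where the MSL3 peak was 1000 bp wide or less, the median distance was 25 bp (12 to 33) in 38 X-linked pairs and 19 bp (16 to 22) in 219 autosomal pairs. Where it was wider, the distances were 260 bp (174 to 378) in 135 X-linked pairs and 43 bp (17 to 345) in 29 autosomal pairs. The split at 1000 bp was chosen after the data had been examined, and the part of width in the difference between the X chromosome and the autosomes was not tested further. MSL1 summits lay inside the MSL3 peak in 173 of 173 X-linked and 246 of 248 autosomal pairs, and MSL3 summits inside the MSL1 peak in 147 and 236.

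**Figure D3:**
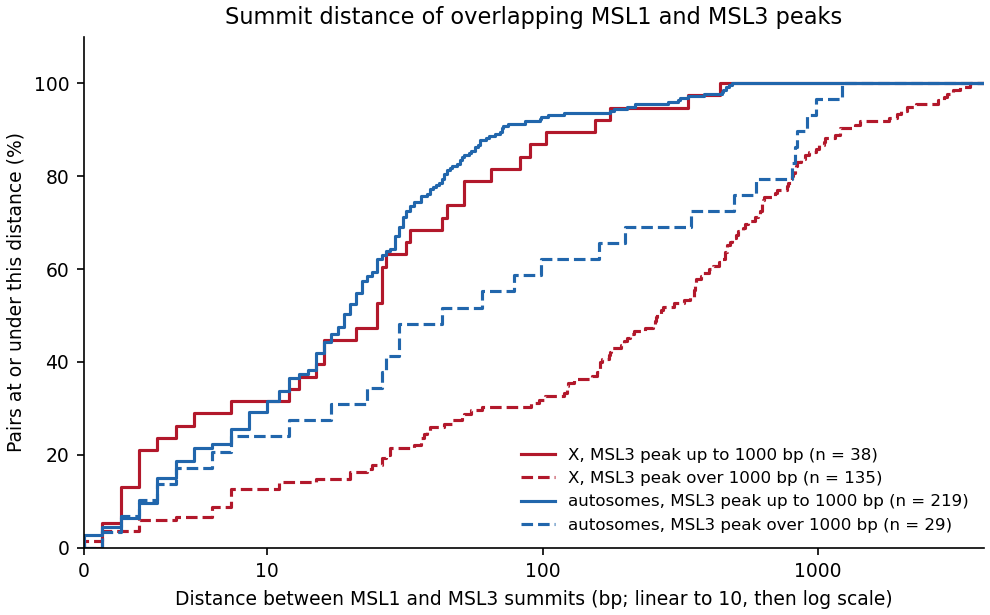
Share of pairs (%) whose MSL1 and MSL3 summits lie at or under a given distance (bp, linear to 10 and logarithmic beyond) on the X chromosome and the autosomes, with pairs split at an MSL3 peak width of 1000 bp. The solid lines (width up to 1000 bp) run close together with medians of 25 and 19 bp, and the X-linked pairs with wider MSL3 peaks have a median of 260 bp.

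The pairs with the greatest distances were broad. The X-linked ones were in the 3′ UTR of BTBD9 (3552 bp between summits in an MSL3 peak of 4384 bp), in kat80, a katanin subunit gene (3288 bp in 4051 bp), and in the lncRNA gene CR44965, next to the ribosomal protein gene RpL22 (3083 bp in 3684 bp). At CR44965 the MSL1 summit itself differed by 722 bp between the pair of sets. On the autosomes they were Hsp83, which encodes the cytosolic Hsp90 chaperone (1225 bp), the ribosomal protein gene RpL31 (983 bp) and Dmtn (909 bp), all ranked between 534 and 547 of 577 for MSL1. At Hsp83 the set-to-set distance was 533 bp for the MSL1 summit and 1186 bp for the MSL3 summit, nearly the distance between the proteins. At autosomal promoters the MSL3 summit lay upstream of the MSL1 summit, along the transcription of the nearest start, in 102 of 171 pairs and downstream in 65, with a median of -8 bp (-13 to -2), less than the 21 bp between sets.

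Autosomal MSL1 summits lay mostly at promoters. X-linked summits of both proteins lay mostly in gene bodies, which make up most of the X chromosome, and were at promoters more often than the share of bases. A summit was counted at a promoter when it lay within 200 bp of an annotated start, which was so for 53.4% of the MSL1 list and 29.6% of the MSL3 list. On the X chromosome, 28 of 173 MSL1 peaks with MSL3 (16.2%) and 76 of 522 MSL3 peaks without MSL1 (14.6%) were at promoters. On the autosomes 171 of 248 MSL1 peaks with MSL3 (69.0%, 62.9 to 74.4%), 105 of 129 without (81.4%, 73.8 to 87.2%) and 412 of 1320 MSL3 peaks without MSL1 (31.2%, 28.8 to 33.8%) were. Promoter windows make up 5.72% of the X chromosome and 6.25% of the autosomes, and gene bodies 70.3% and 63.9%. Against this, gene bodies held 75.7% (68.8 to 81.5%) of X-linked MSL1 summits with MSL3 and 79.9% (76.2 to 83.1%) of X-linked MSL3 summits without MSL1. On the autosomes they held 52.0% (49.3 to 54.7%) of MSL3 summits without MSL1 and 11.3% (7.93 to 15.8%) of MSL1 summits with MSL3, both below their share of bases.

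The higher promoter share of autosomal MSL1 peaks without MSL3 went with their lower strength. Within the 4 bins, from strongest to weakest, promoter shares with MSL3 were 38.1%, 79.4%, 88.0% and 89.1%, and without MSL3 54.5%, 73.1%, 81.8% and 91.7%, with overlapping intervals in each bin. For autosomal MSL3 peaks the contrast held within strength: in the strongest bin 97 of 148 peaks with MSL1 (65.5%) and 96 of 245 without (39.2%) were at promoters, and in the weakest 9 of 11 and 76 of 381.

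**Figure D4:**
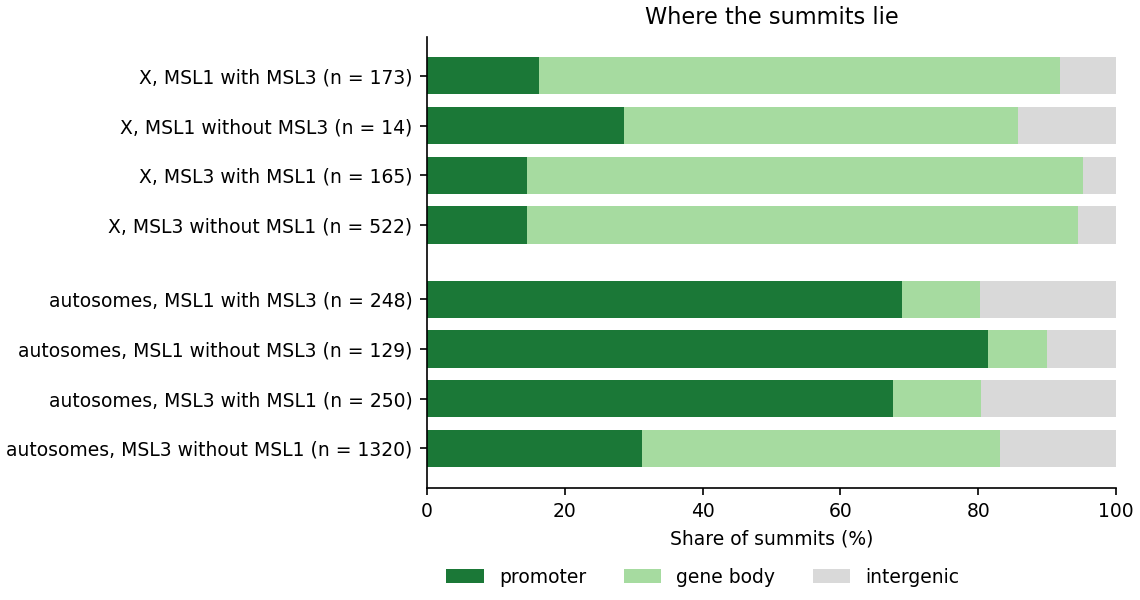
Share of summits (%) at a promoter (within 200 bp of a transcription start), in a gene body or between genes, for MSL1 and MSL3 peaks with and without the other protein on the X chromosome and the autosomes; n is the number of peaks. Gene bodies hold most X-linked summits of every class and make up 70.3% of the X chromosome. Promoters hold 67.6% to 81.4% of autosomal summits in the classes with an MSL1 peak and 31.2% of autosomal MSL3 summits without one.

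Within X-linked genes the proteins peaked over different parts. Of the 173 MSL1 summits with MSL3, 48 (27.7%) lay in a 3′ UTR, 50 (28.9%) in an intron and 33 (19.1%) in a coding exon, while these features make up 6.35%, 46.7% and 16.7% of the X chromosome. Of the 165 MSL3 summits with MSL1, 86 (52.1%, 44.5 to 59.6%) lay in a coding exon and 23 each in a 3′ UTR and an intron. Of the 522 MSL3 summits without MSL1, 371 (71.1%, 67.0 to 74.8%) lay in a coding exon and 24 in a 3′ UTR. Coding exons thus held most MSL3 summits, and a share of MSL1 summits near their share of bases. Gene-body summits leaned to the downstream end, with a median position at 75.0% of the gene's length for MSL1 with MSL3 (66.9 to 82.6%, n = 131), 69.0% for MSL3 with MSL1 (n = 133) and 62.6% for MSL3 without MSL1 (59.4 to 65.9%, n = 417). Autosomal MSL3 peaks without MSL1 had 67.3% (n = 686), and the 28 autosomal gene-body MSL1 peaks with MSL3 had 45.9%.

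GA repeats were more frequent at X-linked MSL1 summits than in windows along the X chromosome, and nearly missing from X-linked MSL3 summits without MSL1. Within 100 bp of the summit, 7.80% of the MSL1 list and 2.30% of the MSL3 list held GAGAGAGA on either strand. It was at 39 of 173 X-linked MSL1 summits with MSL3 (22.5%), 4 of 14 without, and 2 of 522 X-linked MSL3 summits without MSL1, against 1.63% of windows of the same 201 bp placed every 1000 bp along the X chromosome. Of those 522 MSL3 summits 371 lay in coding exons, and windows on coding exons alone were not used as a background. On the autosomes 2 of 377 MSL1 summits held a GA repeat. In X-linked pairs that hold it, the median distance of the nearest copy was 16 bp from the MSL1 summit (39 pairs) and 16 bp from the MSL3 summit (19 pairs).

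The heptamer marked autosomal MSL1 sites off promoters, with or without MSL3. Across all chromosomes 24.3% of MSL1 summits and 7.21% of MSL3 summits had AAGCAGT on either strand within 100 bp. Off promoters it was at 59 of 77 autosomal MSL1 summits with MSL3 (76.6%, 66.0 to 84.7%) and 18 of 24 without (75.0%, 55.1 to 88.0%), and at promoters at 32 of 171 and 14 of 105. Autosomal MSL3 summits without MSL1 held it in 31 of 908 cases off promoters (3.41%) and 18 of 412 at promoters (4.37%). Windows every 1000 bp held it in 2.42% and windows on autosomal starts in 3.24%. The median distance from the nearest copy was 9 bp for both MSL1 summits (91 pairs) and MSL3 summits (88 pairs).

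Repeated copies sharpened the contrast. Within 100 bp of the summit, 2 or more copies stood at 45 of 77 autosomal MSL1 peaks with MSL3 off promoters and 17 of 24 without, up to 5 copies in a window. None of the 1320 autosomal and none of the 522 X-linked MSL3 peaks without MSL1 had more than 1. Among 110340 autosomal windows 70 had 2 or more. In MLEWT-FLAG males, 40 of 42 autosomal MSL1 peaks held the heptamer (95.2%, 84.2 to 98.7%), as did 133 of 1879 autosomal MSL3 peaks and 0 of 4 and 0 of 23 autosomal MSL2 peaks of the MLEWT-FLAG and MLEΔCBD-FLAG lists. The heptamer was thus found under peaks of both proteins and in the lists of both lines. The MSL1 lists of the lines are largely the same places here and no independent support. The word was picked from the list of MLEΔCBD-FLAG males, and 40 of its 377 autosomal MSL1 peaks overlapped an MSL1 peak of MLEWT-FLAG males. Among the 129 without MSL3, 2 did. No peak list of the preimmune library was used here, so whether such sites are recovered without an MSL antibody was not tested.

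Autosomal clusters of 3 or more heptamer copies, read from the genome, mostly carried MSL1, and smaller clusters mostly did not. Copies at most 100 bp apart were joined into clusters. An MSL1 peak overlapped 17 of 25 autosomal clusters of 3 copies (68.0%, 48.4 to 82.8%) and 13 of 16 of 4 or more (81.2%, 57.0 to 93.4%). MSL3 overlapped 15 and 12 of them, always together with MSL1. With 2 copies the MSL1 share was 54 of 295 (18.3%) and with 1 copy 65 of 13587 (0.478%). X-linked clusters of 3 copies carried MSL1 in 4 of 20 cases (20.0%, 8.07 to 41.6%) and those of 2 copies in 10 of 98. The heptamer was chosen because it led under autosomal MSL1 summits of this same list, which favours high autosomal shares here. The contrast with the X chromosome is therefore descriptive and was not tested on other data.

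**Figure D5:**
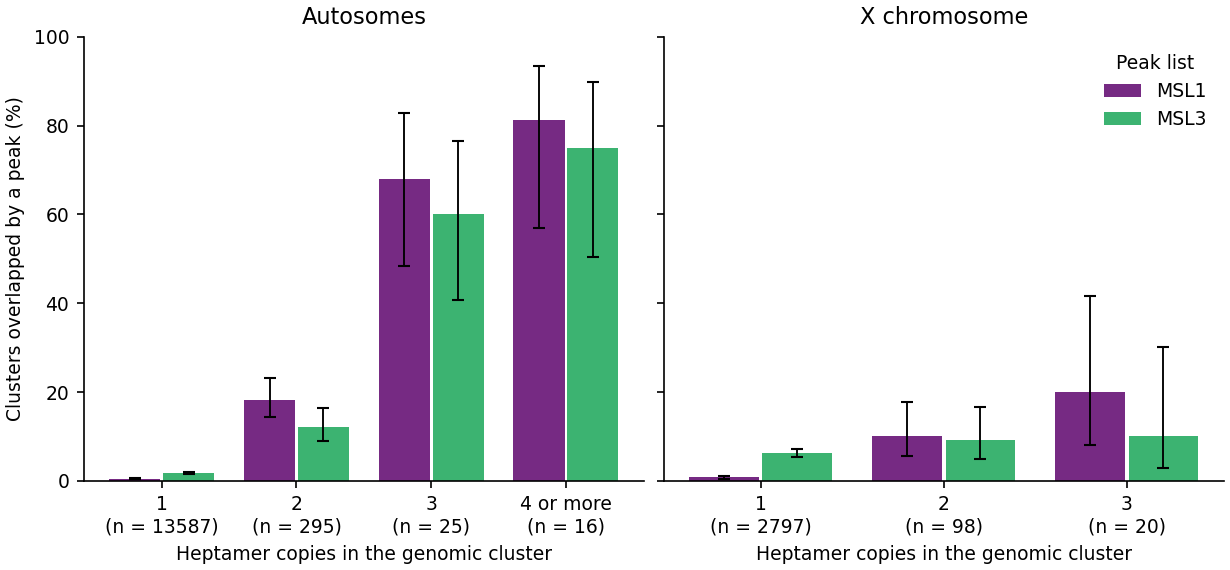
Share (%) of genomic heptamer clusters overlapped by an MSL1 or an MSL3 peak of MLEΔCBD-FLAG males, by the number of copies in the cluster, on the autosomes and the X chromosome; n is the number of clusters and bars are 95% Wilson intervals. The autosomal MSL1 share rises from 0.478% for single copies to 81.2% for 4 or more, and 3 copies reach 20.0% on the X chromosome.

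The X-linked MSL1 peaks without MSL3 also carried the heptamer. It was at 7 of 14 of them, all with 2 or 3 copies, and at 10 of 173 X-linked MSL1 peaks with MSL3. The heptamer also went with the shape of autosomal pairs: in the 91 pairs with it the width ratio was 0.97 (0.87 to 1.01) and 82 summits were within 50 bp, and in the 157 without it the ratio was 1.49 (1.30 to 1.58) and 116 were.

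Motif 1 was more frequent at autosomal MSL1 promoters than at autosomal promoters with MSL3 and no MSL1. The motif (GGTCACACT) is found in the core promoters of many housekeeping genes, and 13.7% of the MSL1 list and 2.39% of the MSL3 list held it. It was at 37 of 105 autosomal promoter MSL1 summits without MSL3 (35.2%, 26.8 to 44.7%), 31 of 171 with MSL3 (18.1%, 13.1 to 24.6%) and 15 of 412 MSL3 promoter summits without MSL1 (3.64%), against 3.66% of all autosomal starts. In the strongest bin motif 1 was at 0 of 6 promoters without MSL3 and 2 of 32 with it, and in the 3 weaker bins the shares were 42.1%, 33.3% and 38.6% without MSL3 and 24.1%, 18.2% and 19.5% with it. At X-linked promoters it was at 5 of 28 MSL1 summits with MSL3 and 8 of 76 MSL3 summits without MSL1, against 3.92% of X-linked starts. The element TATCGATA, bound by the transcription factor DREF, was at 5.89% of the MSL1 and 3.09% of the MSL3 list and had similar shares in the promoter classes: it was at 11 of 105, 15 of 171 and 39 of 412 of these promoters, against 4.93% of autosomal starts. The repeat TGTGTGTG (3.99% of the MSL1 and 3.39% of the MSL3 list) and the E-box CAGCTG (10.2% and 15.2%) were at 2.34% and 10.5% of autosomal MSL1 promoter summits with MSL3, against 3.75% and 12.5% of autosomal starts. All motifs were searched on both strands, and none contains another.

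Off promoters, MSL3 peaks without MSL1 had another leading word. GCAGCAGC, or its reverse complement, was at 154 of 908 autosomal summits (against 3.19% of windows) and 84 of 446 X-linked ones (18.8%, against 3.98%). The E-box CAGCTG was at 129 of the 908 (14.2%, against 8.34% of windows) and 99 of the 446 (22.2%, against 8.49%). Most X-linked MSL3 summits without MSL1 lay in coding exons, and windows on coding exons alone were not used as a background. The same ranking gave GAGCGAGA at 42 of 145 X-linked MSL1 summits with MSL3 off promoters (29.0%, against 1.18% of windows).

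Autosomal cytosolic ribosomal protein genes had MSL1 at a start more often than genes as a whole. Over all 18358 genes, 2.10% had an MSL1 summit and 4.33% an MSL3 summit within 200 bp of a start. Of 72 autosomal cytosolic ribosomal protein genes 14 had MSL1 (19.4%), 15 had MSL3 and 8 had both. The MSL1 peak overlapped an MSL3 peak at 11 of the 14. RpL3 (MSL1 fold enrichment 5.51) had no MSL3 summit within 200 bp of its start, but its MSL1 peak overlapped an MSL3 peak (8.18) with the summit 79 bp away. RpL23 had 4.24 for MSL1 and 9.15 for MSL3, RpL30 3.98 and 14.2, RpL7 3.48 and 3.12, RpL23A 3.46 and 7.57, and RpS4 3.33 and 2.96. Of the 14 X-linked ribosomal protein genes, RpL22 had both (2.98 and 9.12), and RpL7A (6.35), RpL17 (3.82), RpS15Aa (3.65) and RpS5a (2.22) had MSL3 without MSL1 at the start. Copies of ribosomal protein genes elsewhere in the genome can share reads, which the lists do not show.

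Mitochondrial respiratory chain genes had MSL1 at 6 of 68 autosomal starts, MSL3 at 7 and both at 4. They were ATPsynC, a subunit of the ATP synthase ring (5.61 for MSL1 and 13.3 for MSL3), ATPsynF (3.23 and 5.15), UQCR-Q (3.20 and 17.9) and UQCR-C2 (2.87 and 6.53), with MSL1 and no overlapping MSL3 peak at ND-PDSW (3.13) and ATPsynD (3.04). The peak at ND-PDSW also counts for its neighbour msl-2, which encodes MSL2 itself and is the only gene of the MSL complex and CLAMP list, of 8, with MSL1 at a start. No gene of that list had MSL3 at a start. The list includes roX1 and roX2, where both proteins had a peak with its summit in the gene body, more than 200 bp from a start. For proteasome genes the autosomal counts were 3 of 42 for MSL1 and 3 for MSL3, with both at Rpn1 (2.71 and 3.24) and MSL1 alone at Rpn8 (2.76) and Prosbeta1 (2.74). For translation initiation factors they were 3 of 37 and 5, with both at eIF4G2 (2.59 and 8.00) and eIF4E1 (2.48 and 1.98) and MSL1 alone at eIF3k (2.61), and eIF2Bepsilon on the X chromosome had 3.74 and 3.19. For MSL1 and MSL3 the autosomal shares were 8.82% and 10.3% for respiratory chain genes and 7.14% and 7.14% for proteasome genes. They were 8.11% and 13.5% for initiation factors, against 2.23% and 4.39% over all autosomal genes. Small counts like these have wide intervals.

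Autosomal transfer RNA genes had MSL3 at the start more often than autosomal genes as a whole, and MSL1 about as often. Over all autosomal genes 4.39% had an MSL3 summit and 2.23% an MSL1 summit at a start. Of 266 autosomal tRNA genes 46 had an MSL3 summit at the start (17.3%) and 6 an MSL1 summit (2.26%), all 6 with MSL3 as well, led by tRNA:Thr-AGT-1-4 (9.97 for MSL1 and 11.6 for MSL3), tRNA:iMet-CAT-1-5 (6.25 and 6.14) and tRNA:Ser-GCT-2-5 (5.80 and 5.93). Many tRNA genes lie in clusters and have near-identical copies, so neighbouring or repeated genes can count for 1 summit. Of 29 autosomal aminoacyl-tRNA synthetase genes and 18 autosomal heat shock protein genes none had a summit of either protein at a start. The intervals, 0 to 11.7% and 0 to 17.6%, include the shares over all autosomal genes, so these counts do not set the groups apart. On the X chromosome 2 of 3 synthetase genes, HisRS (4.42) and LysRS (2.70), had MSL3 at a start. Of 124 autosomal genes with a symbol beginning in His, which include the histone genes, 1 had MSL1 (His4r, 2.45) and none MSL3. Of 30 autosomal snRNA genes 3 had MSL3 and none MSL1. Near-identical copies in these groups can share reads too, and the part of this in the missing summits was not tested.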

How the data were processed

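The authors made the lists: per the labels and methods, paired-end reads were trimmed with cutadapt, mapped with Bowtie2 to dm6 (the labels' processing notes also list dm3, Picard and deepTools), peaks were called with MACS2 and filtered by the irreproducible discovery rate (IDR), with 2 replicates per protein and line. Tool versions are not given in the sources used here. In the deposited lists the fold enrichment is a ratio over background, the p, q and IDR values are deposited as −log10, and an IDR score was deposited and not used. Start, end and −log10 p of a peak are those of the first of the compared peak sets.

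Overlaps needed 1 bp. A pair is an MSL1 peak and the MSL3 peak with the longest overlap. Promoters were 200 bp either side of starts in Ensembl release 115 (35694 transcripts, 18358 genes), and sequence came from the RefSeq release 6 genome. Where features overlapped, coding exons came first, then 5′ UTRs, 3′ UTRs and noncoding exons. Motifs were searched within 100 bp of summits. The members, gene groups and named peaks were chosen with earlier results of these data known. Named peaks were the 4 most enriched of each class, the 3 pairs with the longest summit distance per region, roX1, roX2, Stt3A and CG4645, and gene-group members with MSL1, at most 6 per group. The heptamer, its clusters, the leading 8-base words, the tables within strength bins and the width split were added after the data were examined. Functions were tested on simulated peaks. Alternatives covered the overlap rule, IDR and q thresholds, equal list lengths, merging, the second peak set, promoter windows, ranks and means. Software: matplotlib 3.10.9, scipy 1.17.1, pandas 2.3.3, numpy 2.4.6, python 3.11.15. Coverage tracks and the preimmune library were not analysed here.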

Additional observations from a re-analysis of the deposited data

Results flagged for a closer look

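Outside the X chromosome and the autosomes, 12 of 13 MSL1 peaks of MLEΔCBD-FLAG males overlapped an MSL3 peak. It drew attention as a signal in sequences that enter the whole-list shares above but none of the comparisons by chromosome. The 13 peaks were 3 on the Y chromosome and 9 on unplaced sequences, all with MSL3, and 1 on the mitochondrial genome without it. The MSL3 list had 44 peaks on such sequences, 12 of them with MSL1. These sequences are repeat-rich, reads can map to several copies, and no preimmune list was used, so their part in the overlap was not tested.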

How the results depend on the processing

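Of 110 alternative values for 23 results, 68 stayed inside the main value's 95% interval and 42 did not. Of the 110, 92 were planned and 18 were chosen after the data had been examined. With summits within 250 bp as the rule for sharing, the X-linked shares were 53.5% for MSL1 and 14.6% for MSL3, so the MSL1 share on the X chromosome was then below the autosomal 61.0%, and the median rank of X-linked MSL3 peaks without MSL1 was 1029. With the MSL3 list shortened to its strongest peaks, the X-linked and autosomal shares were 69.0% and 38.2% for MSL1 and 63.1% and 37.8% for MSL3. Merging peaks closer than 500 bp gave 28.5% for X-linked MSL3. A stricter global IDR, at most 0.001, gave an autosomal MSL1 share of 73.9%, an autosomal width ratio of 1.08, and autosomal promoter shares of 59.5% and 72.2% for MSL1 with and without MSL3 and 60.1% and 42.9% for MSL3 with and without MSL1. Means in place of medians gave summit distances of 419.9 bp on the X chromosome and 70.0 bp on the autosomes, width ratios of 2.68 and 1.47, and a mean rank of 457 for X-linked MSL3 peaks with MSL1. Ranking by −log10 p gave a median rank of 1214 for those without. With MSL3 peaks of 1000 bp or less the X-linked distance was 25 bp and the width ratio 1.17.

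Promoter shares rose with the window, in the order autosomal MSL1 with and without MSL3, autosomal MSL3 with and without MSL1. They were 78.6%, 91.5%, 76.8% and 42.7% at 500 bp, 84.7%, 92.2%, 84.4% and 53.3% at 1000 bp, and 76.6%, 89.9%, 75.6% and 44.6% for any part of the peak within 200 bp. Starts of protein-coding genes only gave 27.6% for the last. X-linked MSL1 peaks with MSL3 had 33.5% at 1000 bp and 33.5% by any part of the peak, and X-linked MSL3 peaks without MSL1 had 19.2%, 35.1% and 27.8% in the order of windows above. Searching 50 bp either side of the summit gave motif 1 at 7.02% of autosomal MSL1 promoters with MSL3 and 24.8% without.

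No paired analysis was possible because the lists carry no replicate columns, and for the same reason no replicate was left out. The lists hold no depth, so a missing peak says only that none passed the authors' thresholds, and the MSL1 list, with 577 peaks, and the MSL3 list, with 2301, were cut at levels of unknown relative depth. The males surviving in this line were compared with no other genotype by test, and strength, width, chromosome and list length move together in these lists.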
